A study of Mus musculus with 6 samples.

Results

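*Arntl*, *Npas2*, *Clock*, *Cry1*, *Nfil3*, *Rora* and *Rorb* are 7 genes of the circadian clock, described here in pancreatic islets of mice with and without the bile acid receptor FXR. They are 7 of the 19342 genes in the count table. The members were selected on measured values of these same libraries: *Npas2* and *Arntl* stood out between the genotypes. The other 5 joined them as clock genes grouped under the phase of *Arntl*, the time of day at which its transcript peaks. The difference between genotypes is therefore given for the members as a description, with no test. Of the 7 members, 6 passed the filter on low counts and *Rorb* did not.

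The clock of mammalian cells is a feedback loop of transcription. BMAL1, the product of *Arntl*, pairs with CLOCK or its relative NPAS2 and activates genes with E-boxes, among them those of the PER and CRY proteins, which later repress that pair. In an interlocked loop, REV-ERB receptors repress and ROR receptors activate genes with ROR elements, of which *Arntl*, *Clock*, *Npas2*, *Cry1* and *Nfil3* are known examples. NFIL3 represses and the PAR bZIP factors DBP, TEF and HLF activate genes with D-boxes. Beta cells hold such a clock, and loss of *Arntl* or *Clock* in mice is known to impair insulin secretion.

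RNA-seq was made from the islets of FXR+/+ mice (wild type) and FXR-/- mice (knockout), with 3 libraries each. Both genotypes had 1 female and 2 male libraries, named female 1, male 1 and male 2, all at an age of 3 months. The knockout was carried in the whole animal and not in islet cells alone, and the labels do not say whether a library is 1 mouse or several. No treatment was given in the labels. Islets were freed with collagenase P, and mRNA was taken with oligo(dT). The hour of the day at which islets were collected is not given in the sources used here.

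The gene counts summed to between 20629306 and 30139235 per library. *Nr1h4*, which encodes FXR, was counted 333, 274 and 386 times in FXR+/+ and 140, 145 and 138 times in FXR-/-, so its transcripts were fewer but not absent. The fitted log2 fold change of *Nr1h4* was -1.07 ± 0.160 (estimate ± standard error; adjusted p = 0.217 in edgeR, adjusted p = 0.0441 in edgeR with the replicate numbers as a block, adjusted p = 7.89e-05 in DESeq2), with adjusted p from 7.89e-05 to 0.65 over the alternatives. With 3 libraries against 3, the two-sided exact permutation test gave p = 0.1, the smallest it can give, so it cannot reach 0.05. The endocrine markers *Ins1*, *Ins2*, *Iapp*, *Gcg*, *Sst* and *Ppy* were counted in every library, and *Ins1* and *Ins2* took 17.5% to 23.9% of all counts. Summed over 25 genes, acinar markers ranged from 49350 to 148100 CPM (counts scaled to the library size after TMM normalization) in FXR+/+ and from 70300 to 169100 CPM in FXR-/- libraries. The 7 endothelial markers summed to 470 to 560 CPM in FXR+/+ and 579 to 936 CPM in FXR-/- libraries, without overlap. None of these markers was at 0 in all libraries. In such bulk samples, fewer cells of a type and less RNA per cell cannot be told apart.

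*Arntl* (NCBI gene 11865) encodes BMAL1, the partner without which the loop does not run. In GENCODE vM21 on the mouse build GRCm38 it lies on the plus strand of chromosome 7, from 113207465 to 113314126. It had 251 counts in female 1, 72 in male 1 and 73 in male 2 of FXR+/+, against 545, 574 and 528 in the corresponding FXR-/- libraries. In CPM these were 10.7, 3.57 and 2.30 against 22.1, 30.2 and 22.2. Every FXR-/- library was above every FXR+/+ library, and the FXR+/+ female lay between its males and the FXR-/- group. The mean was 5.52 ± 4.53 CPM in FXR+/+ and 24.8 ± 4.64 CPM in FXR-/- (SD, n = 3), a ratio of 4.50, and the fitted log2 fold change was 2.43 (standard error 0.442).

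*Npas2* (NCBI gene 18143; chromosome 1, 39193731 to 39363236, plus strand) encodes the relative of CLOCK that can replace it beside BMAL1. It had 35, 10 and 6 counts in FXR+/+ female 1, male 1 and male 2, and 121, 155 and 155 counts in FXR-/-. The CPM values were 1.49, 0.496 and 0.189 against 4.90, 8.15 and 6.52. The order of the FXR+/+ libraries was that of *Arntl*, with the female highest and male 2 lowest, and the groups did not overlap. The means of 0.726 ± 0.681 and 6.53 ± 1.63 CPM (SD, n = 3) had a ratio of 8.99, with a log2 fold change of 3.31 (standard error 0.566). With 6 and 10 counts in the FXR+/+ males, the size of this ratio rests on few reads.

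*Clock* (NCBI gene 12753; chromosome 5, 76209868 to 76304792, minus strand) encodes the usual partner of BMAL1. It was counted 1805 to 3318 times in each library. In female 1, male 1 and male 2 it stood at 122, 89.5 and 105 CPM in FXR+/+ and at 122, 95.8 and 111 CPM in FXR-/-. The groups overlapped, and the values of each same-numbered pair were close. The log2 fold change was 0.06 (standard error 0.0971), and it was -0.04 when libraries were scaled by their size alone.

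*Cry1* (NCBI gene 12952; chromosome 10, 85131700 to 85185064, minus strand) encodes a repressor of CLOCK and BMAL1 whose transcript is known to peak later than those of the other CRY and PER genes. Its levels in female 1, male 1 and male 2 were 9.93, 8.87 and 17.5 CPM in FXR+/+ and 15.1, 20.2 and 12.6 CPM in FXR-/-. Male 2 was the highest FXR+/+ library and the lowest FXR-/- library, so the groups overlapped. The means were 12.1 ± 4.70 and 16.0 ± 3.88 CPM (SD, n = 3), and the log2 fold change was 0.40 (standard error 0.274).

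*Nfil3* (NCBI gene 18030; chromosome 13, 52967209 to 52981073, minus strand) encodes the D-box repressor, which is also known as an immune regulator induced by several signals. Its counts were 429, 243 and 118 in FXR+/+ female 1, male 1 and male 2, and 610, 1895 and 948 in FXR-/-. The CPM values were 18.3, 12.0 and 3.73 against 24.7, 99.7 and 39.9. Every FXR-/- library was above every FXR+/+ library, but the female libraries were close to each other and FXR-/- male 1 stood far above the rest. The means were 11.4 ± 7.30 and 54.8 ± 39.6 CPM (SD, n = 3), a ratio of 4.82, and the log2 fold change was 2.29 (standard error 0.717). The highest *Nfil3* value was in the library with the most immediate early transcripts, genes such as *Fos* and *Egr1* that respond within minutes to stimuli, and the lowest value in the library with the fewest. Summed over 11 such genes, female 1, male 1 and male 2 held 2998, 5373 and 231 CPM in FXR+/+ and 1199, 7004 and 2735 CPM in FXR-/-. Between these extremes the orders differed. FXR+/+ male 1 held more of these transcripts than the FXR-/- female but less *Nfil3* (12.0 against 24.7 CPM). Acinar markers were also highest in FXR-/- male 1 and lowest in FXR+/+ male 2. When the sex term was exchanged for one of acinar RNA, the log2 fold change of *Nfil3* was 1.65, against 2.23 for *Arntl* and 3.05 for *Npas2*. The part of the immediate early and endothelial transcripts in these differences was not tested.

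*Rora* (NCBI gene 19883; chromosome 9, 68653786 to 69388246, plus strand) encodes a receptor that activates at ROR elements. It ranged from 54.6 to 57.7 CPM in FXR+/+ and from 53.0 to 63.6 CPM in FXR-/- libraries. The groups overlapped, and the log2 fold change was 0.08 (standard error 0.0892), or -0.02 with libraries scaled by their size alone. *Rorb* (NCBI gene 225998; chromosome 19, 18930605 to 19111196, minus strand), the relative of *Rora* best known from brain and retina, had 3, 4 and 11 counts in FXR+/+ and 2, 2 and 9 in FXR-/-. The level of *Rorb* followed the library number rather than the genotype, with male 2 highest in both groups, and at this depth a difference could not be shown.

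**Figure D1:**
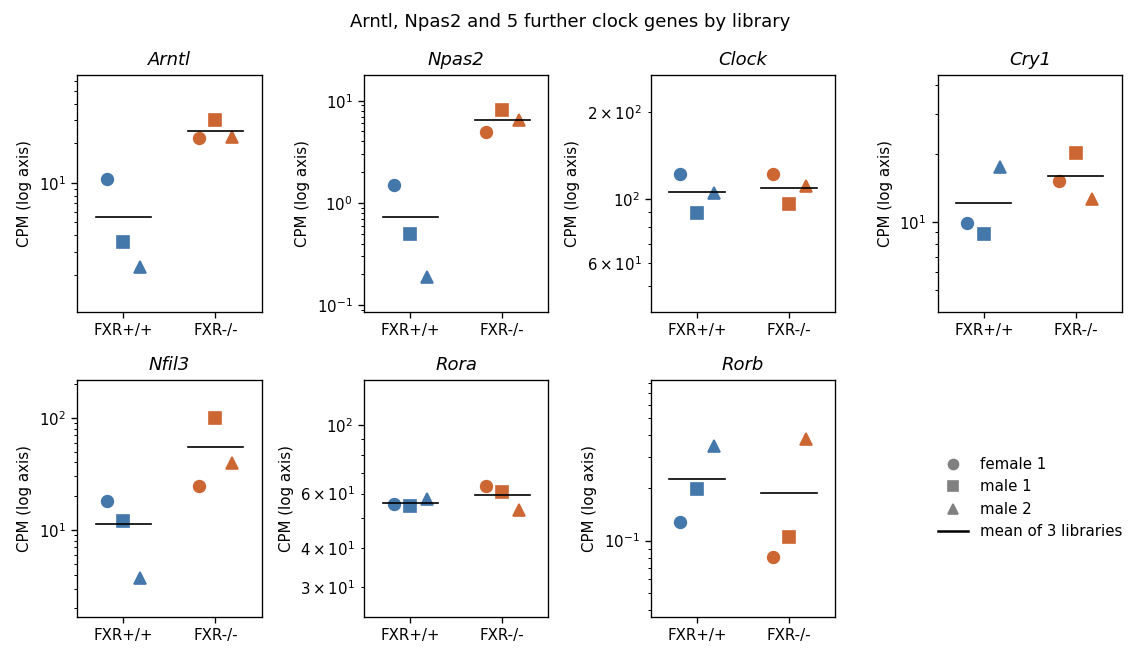
Level of each member in CPM (log axis, each panel with its own range) in the 3 FXR+/+ and 3 FXR-/- libraries, with circles for female 1, squares for male 1, triangles for male 2 and a line at the mean of 3 libraries. The groups do not overlap for *Arntl*, *Npas2* and *Nfil3*, and overlap for the other 4 members.

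All 3 FXR-/- libraries were above all 3 FXR+/+ libraries for 3 of the 7 members and below them for 0. Among the 14619 genes that passed the filter, 8.02% were above in this sense and 7.37% below. As the members were chosen from this same contrast, nothing is read from their count. Just inside this line stood *Nfil3*, whose lowest FXR-/- level of 24.7 CPM compares with a highest FXR+/+ level of 18.3 CPM. Just outside it stood *Rora*, with 53.0 CPM against 57.7 CPM.

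The size of the difference depended on the pair of libraries. The FXR-/- level of *Arntl* divided by the FXR+/+ level was 2.06 for female 1, 8.46 for male 1 and 9.64 for male 2. For *Npas2* the same ratios were 3.29, 16.5 and 34.4. For *Nfil3* they were 1.35, 8.28 and 10.7, so the female pair was the nearest to 1 for these 3 members. In the males alone the log2 fold changes of *Arntl*, *Npas2* and *Nfil3* were 3.17, 4.50 and 3.16. Leaving out either female library gave the same values, because the sex term then takes up the other female and the comparison is again that of the males. Leaving out FXR+/+ male 2 gave 1.93, 2.61 and 1.57, and leaving out FXR-/- male 1 gave 2.14, 3.08 and 1.57. Each genotype has 1 female library, so sex and this pair of libraries cannot be told apart. The pair ratios of *Clock* were 0.993, 1.07 and 1.06, those of *Rora* 1.15, 1.12 and 0.919, and those of *Cry1* 1.52, 2.28 and 0.719. For *Clock* the female pair was also the lowest and the nearest to 1, but all its ratios were close to 1. For *Rora* and *Cry1* the lowest ratio was that of male 2.

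**Figure D2:**
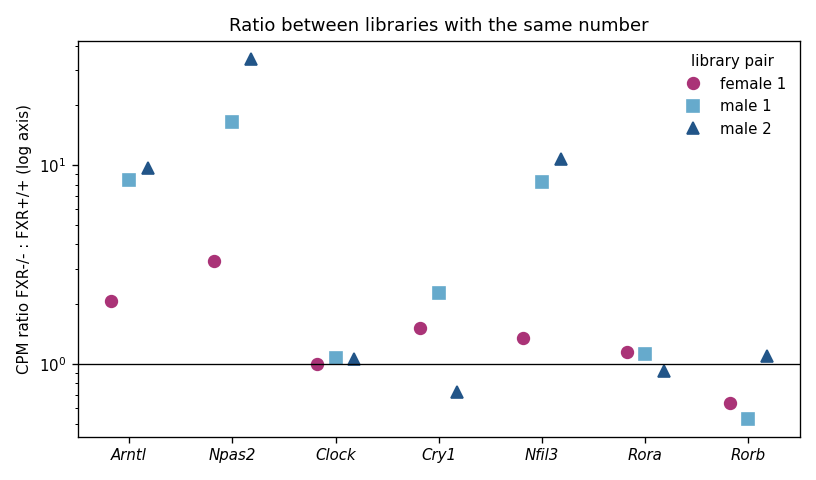
Ratio of the FXR-/- to the FXR+/+ level (CPM, log axis) for each member in the 3 pairs of libraries with the same sex and number; the line marks a ratio of 1. For *Arntl*, *Npas2* and *Nfil3* the female pair (2.06, 3.29 and 1.35) lies below both male pairs.

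The FXR+/+ libraries also differed among themselves. These are values that the choice of members used, so they are a description as well. The FXR+/+ female had 3.64 times the mean level of the FXR+/+ males for *Arntl*, 4.36 times for *Npas2* and 2.32 times for *Nfil3*. In FXR-/- the same ratios were 0.843, 0.668 and 0.354. The FXR+/+ female was above both FXR+/+ males for 4 of the 7 members (*Arntl*, *Npas2*, *Clock*, *Nfil3*), below both for 1 (*Rorb*) and between them for 2 (*Cry1*, *Rora*). Over all genes that passed the filter, the female was above both males for 28.4% and below both for 28.7%, and nothing is read from the members' count. With 1 female library this difference has no replicate check.

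Per length, *Clock* was the most abundant member in FXR+/+ islets, at 7.69 ± 1.20 CPM per kilobase of exon (mean ± SD, n = 3). *Nfil3* followed at 5.60 ± 3.61, *Rora* at 4.28 ± 0.121 and *Cry1* at 3.62 ± 1.41 CPM per kilobase. These 4 members are not separated in a fixed order, since the libraries of *Nfil3* (1.84 to 9.03) span the ranges of *Rora* and *Cry1* and reach that of *Clock*. *Arntl* (0.734 ± 0.602), *Npas2* (0.152 ± 0.142) and *Rorb* (0.0203 ± 0.0101) came next. *Arntl* stayed below *Cry1* and above *Npas2* in each library, although the ranges of *Arntl* and *Npas2* met, and *Npas2* exceeded *Rorb* in each. In FXR-/- the order was *Nfil3* (27.0 ± 19.6), *Clock* (7.98 ± 0.945), *Cry1* (4.78 ± 1.16), *Rora* (4.53 ± 0.421), *Arntl* (3.30 ± 0.617), *Npas2* (1.36 ± 0.339) and *Rorb* (0.017 ± 0.0149). There *Nfil3* was above *Clock* in all 3 libraries, and *Cry1* and *Rora* overlapped. *Npas2* thus remained the lower of the 2 paralogs with *Clock* in both genotypes. Dividing by the whole exon length takes reads as evenly spread, which they were not. In the counts per exon described below, the last exon held 97.2% for *Clock*, 90.5% for *Rora*, 74.1% for *Arntl* and 38.4% for *Cry1*. The order between genes therefore depends on the annotated length used.

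A second table of the study counts reads per exon and holds part of the same reads, so it is no independent measurement. The last exon of *Arntl* (chromosome 7, 113313459 to 113314126) had 30, 2 and 20 counts in FXR+/+ and 99, 72 and 77 in FXR-/-, and was 74.1% of the exon counts of *Arntl*. The other 17 exons of *Arntl* together had 27 counts in FXR+/+ and 78 in FXR-/-. For *Npas2*, the last exon (chromosome 1, 39361855 to 39363240) had 16, 1 and 1 counts against 24, 36 and 42, and all other exons 3 against 23. The last exon of *Nfil3* (chromosome 13, 52967209 to 52969021), which holds nearly all of that transcript, had 413, 230 and 110 counts against 570, 1774 and 893. Before that exon *Nfil3* had 3 counts in FXR+/+ and 14 in FXR-/-. For each of these 3 members, exons before the last pointed the same way as the last exon, on few reads for *Npas2* and *Nfil3*. As the members were chosen from this contrast, nothing further is read from it. *Clock* had 155 counts in its earlier exons in FXR+/+ and 159 in FXR-/-. *Arntl* shares 33 exonic bases with the antisense gene *Gm45355* and *Rora* shares 82 with the antisense gene *Gm15511*; whether counting used strand is not stated.

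ROR elements and E-boxes near the start sites of the members are shown because they are the letters through which the loop is known to act. RefSeq windows of GRCm38.p6, from 250 bases before to 50 after each start site, were found for 7 of 7 members, 11 windows in all. The element TAGGTCA, read on both strands, was in windows of *Arntl* and *Nfil3* and in 2.61% of all 32817 windows. Its core AGGTCA, which TAGGTCA contains, was in windows of *Arntl*, *Clock* and *Nfil3* and in 16.3% of all windows. *Arntl* holds a pair of such elements, which the overlapping pattern GTAGGTNA finds together. This pattern was written after the *Arntl* sequence was read, and 2.14% of all windows hold it, those of *Nfil3* included. In the following sequences, 5′ to 3′ on the strand of the gene, capitals mark the matched letters.
Arntl, chr7:113207493-113207522, plus strand, element at position 40 from the first start site and -7 from the second: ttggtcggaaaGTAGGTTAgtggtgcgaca
Arntl, chr7:113207529-113207558, plus strand, element at position 30 from the second start site: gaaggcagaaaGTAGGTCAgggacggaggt
Nfil3, chr13:52981033-52981062, minus strand, element on the opposite strand at position -12: gcgctcggaacTGACCTACtaacacacatc

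The E-box CACGTG was in the window of *Cry1* and in 7.15% of all windows, and its variant CACGTT, likewise read on both strands, in windows of *Cry1* and *Rorb* and in 4.69% of all windows. The D-box TTANGTAA was in a window of *Rorb* and in 2.32% of all windows. None of these letters was in the windows of *Npas2* or *Rora*, which says nothing of sites elsewhere. Capitals again mark the match in *Cry1*.
Cry1, chr10:85185097-85185126, minus strand, CACGTG at position -60: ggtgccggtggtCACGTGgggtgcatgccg
Cry1, chr10:85185116-85185145, minus strand, AACGTG at position -79: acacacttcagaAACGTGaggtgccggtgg
Within these windows the ROR element was in *Arntl* and *Nfil3*, whose groups did not overlap. Its core was also in *Clock*, whose groups overlapped. *Npas2*, whose groups did not overlap, has none of the letters searched. A link between these letters and the difference between genotypes was not tested.

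The remaining genes of the clock were compared between genotypes in 8 lists of 41 genes, all of which passed the filter. In the edgeR fit no gene had an adjusted p under 0.05, 0 of 41 in the lists and 0 of 14619 genes in all (0.0%). At an unadjusted p under 0.05, 2 of the 41 were higher in FXR-/- and 9 were lower, against 6.18% and 4.15% of all genes. With the replicate numbers as a block, 0.157% of all genes passed the adjusted threshold and 0 of the 41. With DESeq2, 1.21% of all genes passed and 1 of the 41, *Nr1d2*. The lists were put together with earlier results of these libraries known, so their counts are descriptions.

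The members of the loop known to peak at about the opposite time of day lay on the other side. The 10 compared were *Per1*, *Per2*, *Per3*, *Cry2*, *Ciart* (a further repressor of CLOCK and BMAL1, listed with PER and CRY), the REV-ERB genes *Nr1d1* and *Nr1d2*, and the PAR bZIP genes *Dbp*, *Tef* and *Hlf*. *Cry1*, a member with a log2 fold change of 0.40, was not among them. All 10 had a log2 fold change below 0, *Cry2* by less than its standard error, with a median of -0.93 against 0.0084 over all genes. At an unadjusted p under 0.05 in edgeR, 6 of the 10 were lower and 0 higher, against 4.15% and 6.18% of all genes. The 10 were grouped with earlier results known, so this count is a description. Over the alternatives, 8 to 10 of the 10 were below 0, with the fewest when FXR-/- male 2 was left out. *Per3*, a weak repressor of the loop, had 19.99, 55.8 and 65.6 CPM in FXR+/+ female 1, male 1 and male 2 and 17.8, 9.63 and 15.6 CPM in FXR-/-. The log2 fold change of *Per3* was -1.59 ± 0.423 (estimate ± standard error; adjusted p = 0.369 in edgeR). *Nr1d2*, which encodes the repressor REV-ERB beta of ROR elements, had 86.1, 156.7 and 156.4 CPM against 69.4, 51.1 and 60.9. For *Nr1d2* the log2 fold change was -1.10 ± 0.225 (estimate ± standard error; adjusted p = 0.266 in edgeR and adjusted p = 0.0479 in DESeq2), with adjusted p from 0.0479 to 0.65 over the alternatives. *Tef*, a D-box activator, had 69.3, 150.6 and 165.2 CPM against 65.7, 38.4 and 58.3, a log2 fold change of -1.18 (standard error 0.329). *Per3*, *Nr1d2* and *Tef* were the genes of the 10 whose FXR-/- libraries were all below the FXR+/+ libraries, and 0 were all above. Over all genes 7.37% were below and 8.02% above in this sense, and this count too is a description. For the other 7, log2 fold changes were -1.40 for *Dbp*, -1.01 for *Ciart*, -0.86 for *Hlf*, -0.60 for *Per2*, -0.41 for *Nr1d1*, -0.15 for *Per1* and -0.03 for *Cry2*, and the groups overlapped. As the hour of collection is not given for the libraries, a difference of hour cannot be told apart from one of genotype. Its part in these values was not tested.

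The FXR+/+ female was below both FXR+/+ males for 10 of these 10 genes, and above both males for *Arntl*, *Npas2* and *Nfil3*. Over all genes it was below both for the 28.7% given above. The 10 genes belong to 1 loop and were read in the same female library. They are not separate observations, and nothing is read from their count. For *Cry2* the gap was small, at 148.5 CPM against 149.1 CPM in FXR+/+ male 1. *Dbp*, the D-box activator with the widest daily swing in many tissues, stood at 15 CPM in the FXR+/+ female and at 98.6 and 57.0 CPM in the males. In FXR-/- it stood at 20.3 CPM in the female and at 9.68 and 23.4 CPM in the males. The FXR+/+ female thus lay between the FXR+/+ males and the FXR-/- libraries for *Arntl*, *Npas2* and *Nfil3*, and had a *Dbp* level within the FXR-/- range.

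**Figure D3:**
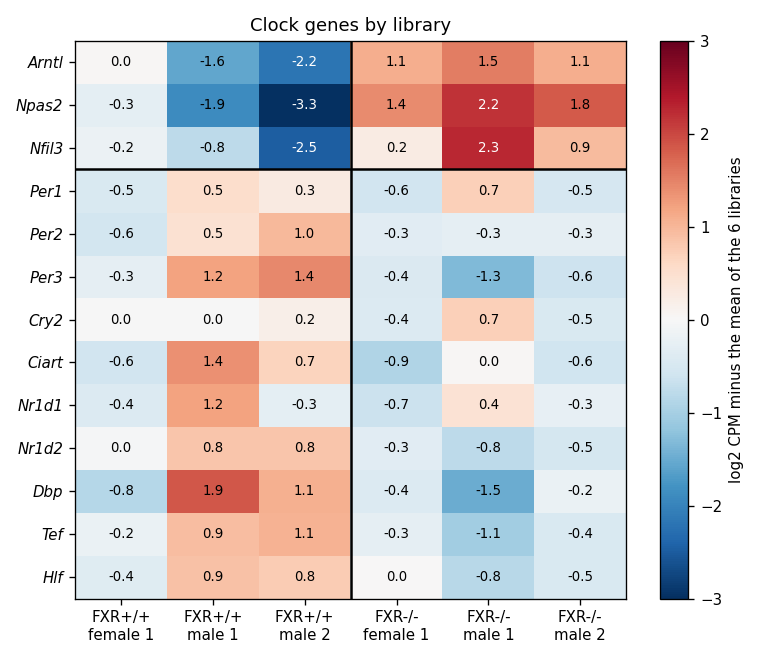
Colour shows log2 CPM minus the mean of the 6 libraries for *Arntl*, *Npas2* and *Nfil3* (above the horizontal line) and for 10 PER, CRY, REV-ERB and PAR bZIP genes, with a column per library and the genotypes parted by the vertical line. The 3 members are low in both FXR+/+ males, where *Per3*, *Nr1d2*, *Tef*, *Dbp* and *Hlf* are high.

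Further genes of the loop are paralogs of the members or act at the same elements. *Arntl2*, which encodes the paralog BMAL2, had at most 2.64 CPM in any library, a log2 fold change of -0.11. Of the DEC repressors of E-boxes, *Bhlhe40* had a log2 fold change of 0.40 and *Bhlhe41* of -0.31, and neither passed the adjusted threshold. The 27 kinases, regulators and outputs of the clock had a median of -0.02. At an unadjusted p under 0.05 in edgeR, 1 was higher and 2 were lower, against 6.18% and 4.15% of all genes. The 11 kinases and turnover genes among them, such as *Csnk1d* and *Csnk1e*, which encode the kinases of PER proteins, ranged from -0.19 to 0.24.

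**Figure D4:**
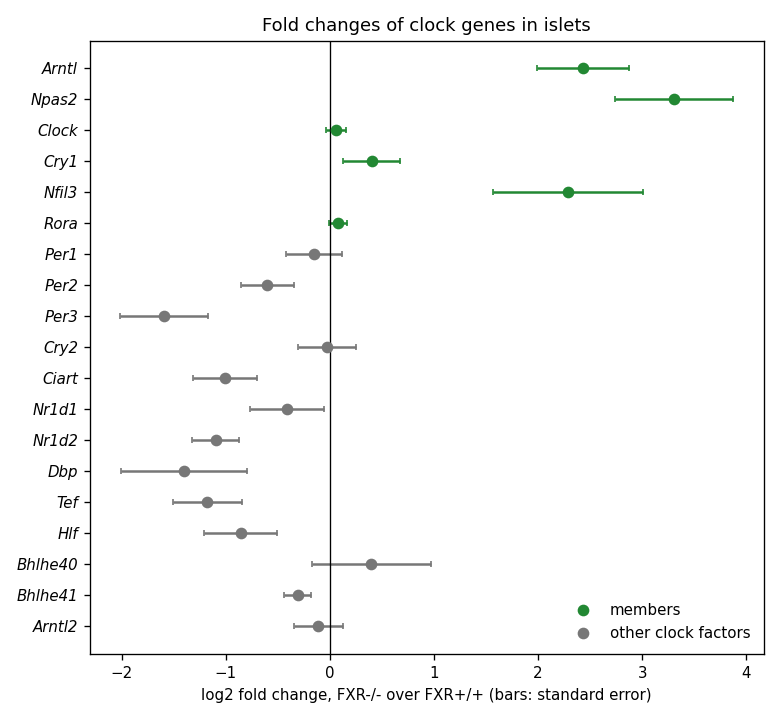
Log2 fold change of FXR-/- over FXR+/+ from the edgeR fit for 6 members (green) and further clock factors (grey), with bars of 1 standard error. *Arntl*, *Npas2* and *Nfil3* lie above 2, *Clock* and *Rora* near 0, *Cry1* at 0.40, and the other 10 PER, CRY, REV-ERB and PAR bZIP genes below 0.

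The members were joined under the phase of *Arntl*, which these libraries without a known hour cannot show. Likeness in level to *Arntl* is given instead. Over the 6 libraries, the Pearson correlation with *Arntl* in log2(CPM + 0.5) was 0.986 for *Npas2* and 0.920 for *Nfil3*, but 0.343 for *Clock*, 0.313 for *Cry1* and 0.346 for *Rora*. *Npas2* ranked 10 and *Nfil3* 151 among 14618 other genes. These 6 points fall into the genotypes for *Arntl*, so any gene that differs by genotype scores highly, and no p is given. *Arntl* and *Npas2* were chosen from that contrast, so nothing about phase is read from their likeness. The 5 genes most like *Arntl* were *Mbp* (0.997), *Ccnh* (0.992), *Fbxo27* (0.992), *Vasn* (0.990) and *Relt* (0.990). The 5 most unlike were *Nr1d2* (-0.987), *Dusp11* (-0.987), *Asnsd1* (-0.985), *Per3* (-0.978) and *Nek10* (-0.976), of which *Nr1d2* and *Per3* belong to the clock. For *Npas2* the nearest were *Vps37b* (0.997), *Fbxo27* (0.996), *Gemin7* (0.994), *Hip1r* (0.994) and *Rph3al* (0.993). In all, 75 genes had a correlation of at least 0.95 with *Arntl* and 42 of at most -0.95. No time series is part of these data, so the phase itself was not measured.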

How the data were processed

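RNA-seq libraries of islets were grouped by genotype, sex and number from the labels. The authors deposited raw counts per gene and per exon, without normalization. HISAT is named in the submitters' processing notes without a version, and the counting program and strand setting are not given in the sources used here. Exon positions are those of GRCm38 (86.7% of 139263 exons have the start and end of a GENCODE vM21 exon), and exon counts sum to 32.3% to 36.6% of gene counts. The authors' own comparison (means, fold changes, p-values) was not used.

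Counts were fitted in R 4.3.3 with edgeR 4.0.16: filterByExpr by genotype (minimum count 10, minimum total 15), TMM, and the quasi-likelihood test with terms for sex and genotype, over all 6 libraries and 14619 genes, with Benjamini-Hochberg adjustment and a threshold of 0.05. CPM values use TMM-scaled library sizes. Levels per kilobase use the union of GENCODE exons. Scripts were tested on simulated data. Where the labels do not name separate animals, p-values measure only the spread between these libraries. Libraries of a genotype differed by more than sampling noise (chi-square per degree of freedom of at least 38.4).

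The members and lists were chosen with earlier results of these data known. Named are every member, the genes of the 8 other clock lists, *Nr1h4*, the 5 genes most and least like *Arntl* and most like *Npas2*, and marker lists, except 1 listed gene that is not reported here; *Fos*, *Egr1*, *Tsc22d3* and *Fkbp5* were named after their values were seen. Deviations of same-numbered libraries from their genotype means correlated at 0.373, 0.419 and 0.346 over genes, those of other pairs at 0.0628 at most, so the numbers were taken as pairs. What the numbers mark is not stated. This pairing was inferred from these same libraries, and the ratios of the male pairs and the replicate block depend on it. Acinar markers were highest in male 1 of both genotypes (148100 and 169100 CPM), and their part in these correlations was not tested. Alternatives were a fit without sex, the replicate block, DESeq2 1.42.0, other scalings and filters, exon counts, an acinar term, males alone and each library left out.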

Additional observations from a re-analysis of the deposited data

Results flagged for a closer look

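For 11 of 48 clock genes examined, the female pair of libraries differed between genotypes in the opposite direction to both male pairs. That is 22.9%, beside 23.8% of all 14619 genes that passed the filter, so the count is no larger than among genes at large. This difference was not tested, and with 1 female library per genotype it has no replicate check. Among the members only *Clock* was of this kind, with an FXR-/- level 0.993 times the FXR+/+ level in the female pair and 1.07 and 1.06 times in male 1 and male 2. *Arntl*, *Npas2* and *Nfil3* were above 1 in all 3 pairs.

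In genes known to peak opposite to *Arntl*, the ratio of *Dbp* was 1.36 in the female pair and 0.0981 and 0.410 in the male pairs. *Hlf* had 1.30 in the female pair against 0.305 and 0.428. *Per2* had 1.17 against 0.608 and 0.425. Of the DEC repressors, *Bhlhe40* had 0.754 against 1.96 and 1.12, and *Bhlhe41* had 1.02 against 0.747 and 0.689.

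In the other 5 genes, several ratios lay close to 1. *Wee1*, a cell cycle kinase gene under clock control, had 1.08 against 0.821 and 0.719. *Nampt* had 1.11 against 0.998 and 0.828, and *Btrc* had 1.04 against 0.812 and 0.958. *Prkaa2* had 0.917 against 1.25 and 1.03, and *Csnk1a1* had 0.912 against 1.05 and 1.00.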

How the results depend on the processing

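*Arntl*, *Npas2*, *Nfil3* and *Cry1* kept a log2 fold change above 0 under every alternative that gave one, from 1.93 to 3.17, 2.61 to 4.50, 1.57 to 3.16 and 0.19 to 0.76. A filter of at least 10 counts in every library removes *Npas2*. *Clock* (-0.04 to 0.18) and *Rora* (-0.02 to 0.15) crossed 0. Members without overlap numbered 3 to 5 as each library was left out. They were 4 without FXR+/+ male 2, where *Cry1* lay above. They were 5 without FXR-/- male 2, where *Rora* lay above and *Rorb* below. Groups part more easily with fewer libraries, and the share over all genes was not computed for these settings. Nothing is read from these counts.

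For *Nr1h4*, the replicate block gave -1.08 and DESeq2 -1.08, both then past the threshold, and leaving out a library gave -1.23 to -0.94. DESeq2 called 1 of 41 other clock genes, and the replicate block called 0. Clock genes higher at an unadjusted p under 0.05 were 2, but 4 with the replicate block, 1 with library size alone, 1 with exon counts, 0 with males alone and 0 to 1 with a library left out (0 without the FXR+/+ female, FXR+/+ male 1 or the FXR-/- female). Those lower were 9, and 5 to 11 with a library left out, 5 without FXR-/- male 2. The cause of these changes was not tested. Among the 41 clock genes, the block changed no adjusted call of the edgeR fit.

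Over all genes, adjusted calls were 0, but 23 with the block, 177 with DESeq2 and 4 with exon counts. With library size alone 437 genes were higher and 1070 lower at an unadjusted p under 0.05, against 904 and 607. Of the 5 genes most like *Arntl*, 4 remained with a pseudocount of 2 in place of 0.5, and 3 of 5 for *Npas2*. Of the 5 most unlike *Arntl*, 3 remained. Depth limits *Npas2* in FXR+/+ males and *Rorb* throughout.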

Other observations

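Genes known to respond to glucocorticoids, another daily signal to peripheral clocks, were summed over 7 genes to 567, 801 and 394 CPM in FXR+/+ female 1, male 1 and male 2 and to 350, 1077 and 475 CPM in FXR-/-, with overlapping groups. Of the 7, 4 had a log2 fold change below 0 and 3 above, from -0.57 to 0.36. At an unadjusted p under 0.05 in edgeR, 2 of the 7 passed and both were lower. Over all genes 4.15% were lower and 6.18% higher at that threshold. The 2 are named here after their values were seen, and nothing is read from this count. *Tsc22d3* and *Per1* of the 7 also belong to the clock lists counted above, so this is not a separate set. *Tsc22d3* had 31.2, 36.9 and 40.6 CPM in FXR+/+ and 29.2, 28.8 and 25.8 in FXR-/-, without overlap. In this sense 1 of the 7 was below, beside 7.37% of all genes. The log2 fold change of *Tsc22d3* was -0.37 (standard error 0.115). *Fkbp5* had 150.4, 98.0 and 127.5 CPM against 81.2, 103.6 and 66.1, and a log2 fold change of -0.57 (standard error 0.192). Neither passed the adjusted threshold in edgeR (adjusted p = 0.430 and 0.442).

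Of the regulators linked to the clock, *Ncor1*, the corepressor that REV-ERB receptors recruit, had 238.9, 227.1 and 223.7 CPM in FXR+/+ and 271.4, 265.1 and 253.4 in FXR-/-, without overlap, at a log2 fold change of 0.20 ± 0.0777 (estimate ± standard error; adjusted p = 0.467 in edgeR). *Sirt1*, a deacetylase that acts on clock proteins, had 21.2, 19.1 and 20.3 CPM against 18.6, 14.6 and 15.2, also without overlap, at -0.33 ± 0.101 (adjusted p = 0.430 in edgeR).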
